A study of Mus musculus with 24 samples.

Results

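The genes described here belong to the core of the NF-κB pathway in mouse liver: Ikbkg, Ikbkb, Chuk, Nfkb1, Nfkbia and Rela. They were picked by name, and all 6 of 6 are among the 9049 genes listed in the deposited table, none under a numbered suffix. Ikbkg was chosen from its MR and Con values at 6 h, and the other genes were added as its pathway partners. Their diet and time differences are therefore given as a description, with no p-value, and nothing is supported with them. Where any of the 6 genes is counted past a threshold over the whole table, that is description too. No threshold was used to pick them.

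The samples were livers of male C57BL6/J mice, 2 months old per the labels, which had all been kept on the control diet (Con) before the start and were killed after 3 h or 6 h of access to food in the dark phase. Per the methods of the study, the light cycle was reversed and food was taken away for each light phase during the adaptation. In the time differences below, time since food was given back and time of day cannot be told apart. The MR diet held 0.17% methionine and Con 0.86%, and neither held cystine. The 4 groups were MR for 6 h, Con for 6 h, MR for 3 h and Con for 3 h, with 6 mice each (n = 6 in every group below). No gene was altered and no drug was given, and one liver gave one library of 3′ end tags. The 9049 genes sum to between 991702 and 995314 units in each of the 24 libraries, so the units are a score already scaled to nearly equal totals. Levels below are these units after a further scaling by trimmed mean of M-values (TMM), whose factors lay between 0.945 and 1.10. One unit was 4.35% of the mean level of Ikbkg and 6.96% of that of Nfkb1, and read depth is unknown. Levels are not compared between genes, since it is not known whether they were divided by transcript length.

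In resting cells NF-κB dimers, such as the p50 and p65 pair made from Nfkb1 and Rela, are held in the cytoplasm by inhibitory IκB proteins. Signals from receptors for tumour necrosis factor, interleukin-1 and microbial products build ubiquitin chains that gather the IκB kinase (IKK) complex, which is made of 2 kinases and the non-catalytic subunit NEMO. IKK phosphorylates IκBα, IκBα is destroyed by the proteasome, and NF-κB enters the nucleus. In liver the pathway is known for the acute phase response and for protecting hepatocytes from death receptors, and mice that lack NEMO in hepatocytes develop chronic liver injury.

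All 7 hepatocyte markers were listed, and their summed level was between 143019 and 191184 units in the 24 livers, so the defining genes of liver were present in every library. The 12 Kupffer cell and macrophage markers summed to a median of 482 units in MR livers at 6 h and 565 units in Con livers at 6 h, where 1 liver, mouse 4238, reached 1426. At 3 h the medians were 489 units in MR and 544 units in Con, and none of these markers passed the test between the diets at either time. None of the 6 neutrophil markers and 1 of the 9 lymphocyte markers was listed. Exocrine pancreas markers summed to 1593 units in 1 MR liver at 3 h (mouse 4223) and to at most 46.7 elsewhere. Adrenal cortex markers summed to 461 units in 1 MR liver at 6 h (mouse 4214) and to at most 4.98 elsewhere. Differences of Ikbkg and Chuk, the counts over all genes and the median of the NF-κB target genes are also given without these 3 livers. Those of single genes of the wider lists, such as Ccnd1 and Vcam1, are not. In whole liver RNA, fewer cells of a type and less RNA per cell cannot be told apart.

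Ikbkg encodes NEMO, the IKK subunit that binds ubiquitin chains and without which the kinases are not switched on by inflammatory signals. It lies on the plus strand of chromosome X of GRCm38, from 74393233 to 74456792 in RefSeq. In MR livers at 6 h its level was lowest at 30.7, with a median of 33.7 and a highest value of 36.4 units. In Con livers at 6 h the lowest was 17.3, the median 21.2 and the highest 23.6 units. Every MR liver at 6 h was thus above every Con liver, and the lowest MR value was above that of all 18 other livers of the study. At 3 h the lowest, median and highest values were 15.6, 18.8 and 21.2 units in MR and 16.9, 19.1 and 22.4 units in Con. The diets overlapped throughout at 3 h.

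The mean of Ikbkg was 33.5 ± 2.09 units in MR and 20.9 ± 2.26 units in Con at 6 h (SD, n = 6 each), a ratio of 1.60. On the log2 scale the difference was 0.66 (standard error 0.08, 95% interval 0.49 to 0.83), the 32nd highest of the 9049 genes. At 3 h the means were 18.6 ± 2.49 units in MR and 19.2 ± 2.09 units in Con (SD, n = 6 each), and the log2 difference was −0.05 (95% interval −0.22 to 0.12). The diet difference at 6 h exceeded that at 3 h by 0.71 on the log2 scale (95% interval 0.46 to 0.95). Within a diet, Ikbkg was 0.83 higher at 6 h than at 3 h in MR (standard error 0.08), without overlap, and 0.12 higher in Con (95% interval −0.05 to 0.29). In the order of the 4 groups, only the step between MR at 6 h and Con at 6 h exceeded the spread between mice, while Con at 6 h, Con at 3 h and MR at 3 h followed each other within 1 SD. Without mice 4238, 4223 and 4214, the log2 difference of Ikbkg at 6 h was 0.61.

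**Figure D1:**
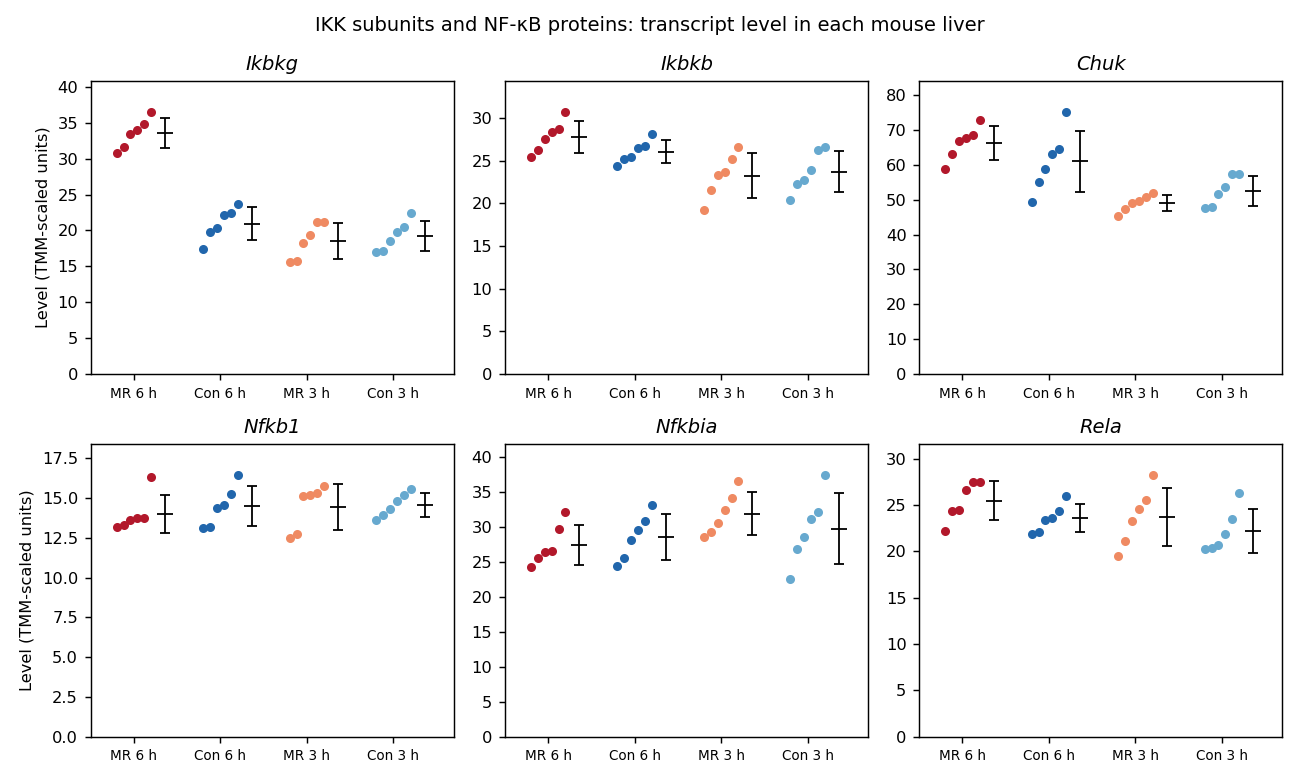
Transcript level of the 6 NF-κB pathway genes, 1 panel per gene, in TMM-scaled units on axes that start at 0. Each point is 1 liver, sorted by value within MR 6 h, Con 6 h, MR 3 h and Con 3 h, and the bar beside the points is the mean ± SD (n = 6). The 6 MR livers at 6 h lie between 30.7 and 36.4 units for Ikbkg, above all others, while the diets overlap at both times in the other 5 panels.

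Ikbkg shares its locus with genes on the opposite strand. G6pdx, which encodes the first enzyme of the pentose phosphate pathway, lies inside it (chromosome X, 74409483 to 74428880 in RefSeq), and Fam3a lies 17 bases before its first start in GENCODE M21. In RefSeq the 3′ end of Ikbkg is at 74456792 and that of G6pdx at 74409483, which is apart from the former but within the span of Ikbkg. Whether the authors' counting used strand is not given in the sources used here, so tags of Ikbkg and G6pdx that overlap may not have been told apart. G6pdx had 3.53 ± 1.21 units in MR and 3.32 ± 0.910 units in Con at 6 h (SD, n = 6 each), where 1 unit is 32.4% of its mean. Its log2 difference was 0.05 (95% interval −0.31 to 0.42). Fam3a, which was added after the analysis had been designed, had 18.9 ± 0.982 units in MR and 19.5 ± 2.53 units in Con at 6 h (SD, n = 6 each), a log2 difference of −0.03 (95% interval −0.18 to 0.11). How many tags of either neighbour were assigned to Ikbkg was not tested.

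**Figure D2:**
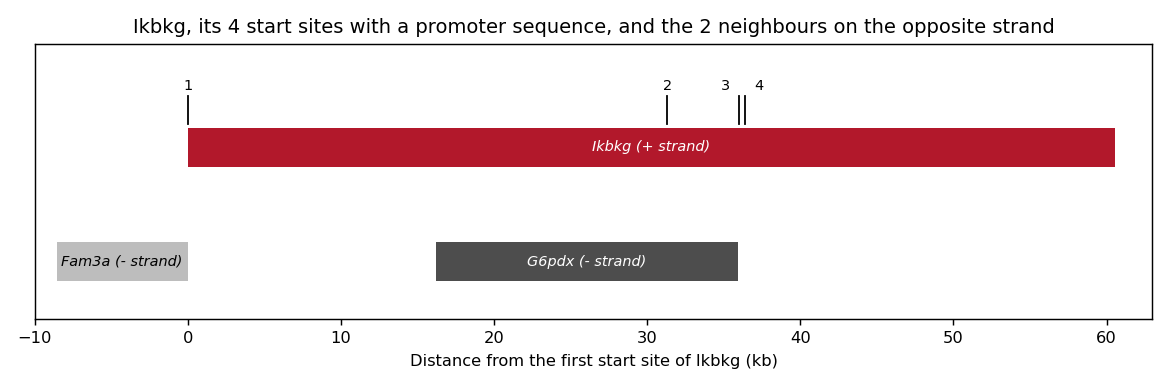
Position of Ikbkg (red, plus strand) and of its neighbours G6pdx and Fam3a (grey, minus strand), as the distance in kb from the first start site of Ikbkg, to scale. Ticks 1 to 4 mark the start sites of Ikbkg for which RefSeq promoters were used. Start 3 lies 435 bases from the start of G6pdx, and starts 2, 3 and 4 lie 31321, 36024 and 36390 bases from start 1.

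RefSeq promoters of GRCm38.p6 (250 bases before to 50 after each start) were matched for Ikbkg, which has 4, and for Chuk, Nfkbia and Rela, which have 1 each. Ikbkb and Nfkb1 had none. They were searched on both strands for the κB consensus, for the antioxidant response element core TGACNNNGC, and for the C/EBP-ATF response element core TGATGNAA. Of 32851 promoters, 4.51% held the first, 12.4% the second and 3.97% the third. The promoter of Ikbkg start 2 and that of Nfkbia are shown because they were those of the 6 genes that held a match. The matches are in capitals. Ikbkg start 2 is chrX:74424362-74424661 on the plus strand, and its capitals are an antioxidant core read on the opposite strand, which begins 38 bases before the start. Nfkbia is chr12:55492598-55492897 on the minus strand, and its capitals are the κB consensus, read on the opposite strand, which begins 29 bases before the start, and an antioxidant core which begins 13 bases before it, without overlap.
Ikbkg start 2: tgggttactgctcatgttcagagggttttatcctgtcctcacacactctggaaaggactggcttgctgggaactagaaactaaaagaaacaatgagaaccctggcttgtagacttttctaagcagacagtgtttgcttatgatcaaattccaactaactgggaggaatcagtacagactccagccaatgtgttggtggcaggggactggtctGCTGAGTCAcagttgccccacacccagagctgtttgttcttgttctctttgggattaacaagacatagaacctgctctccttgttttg
Nfkbia: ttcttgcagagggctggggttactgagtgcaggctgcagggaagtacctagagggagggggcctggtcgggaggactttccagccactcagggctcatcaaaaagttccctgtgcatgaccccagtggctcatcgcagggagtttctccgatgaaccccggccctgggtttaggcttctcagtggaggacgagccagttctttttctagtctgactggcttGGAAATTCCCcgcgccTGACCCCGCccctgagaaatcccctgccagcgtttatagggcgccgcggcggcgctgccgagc
No match to any of the 3 was found in the promoters of Ikbkg starts 1, 3 and 4, nor in those of Chuk and Rela. The Ikbkg start 3 window shares 66 bases with the promoter of G6pdx, which held an antioxidant core 57 bases before its own start, outside the shared bases. A 3′ end tag does not tell which start a transcript used. A match to these letters says nothing of which factor was bound in these livers.

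The catalytic subunits of IKK had smaller log2 differences between the diets at 6 h than the value for which Ikbkg was chosen. Ikbkb encodes IKKβ, the kinase that phosphorylates IκBα in the canonical pathway (chromosome 8, 22659205 to 22706589). At 6 h its lowest, median and highest levels were 25.4, 27.9 and 30.6 units in MR and 24.4, 26.0 and 28.1 units in Con. At 3 h they were 19.3, 23.5 and 26.6 units in MR and 20.4, 23.3 and 26.6 units in Con. The diets overlapped at both times. Between MR and Con, Ikbkb differed on the log2 scale by 0.09 at 6 h (95% interval −0.06 to 0.23) and −0.03 at 3 h (95% interval −0.17 to 0.12). Between 6 h and 3 h it was 0.25 in MR (standard error 0.07) and 0.14 in Con (standard error 0.07), with overlap of the times in both diets. The neighbouring steps from MR at 6 h to Con at 6 h and on to Con at 3 h were each larger than 1 SD, although the groups overlapped, and Con and MR at 3 h did not differ beyond their spread.

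Chuk encodes IKKα, the kinase that in the non-canonical pathway leads to processing of the p100 precursor (chromosome 19, 44073334 to 44107505). At 6 h its lowest, median and highest levels were 58.9, 67.1 and 72.8 units in MR and 49.3, 61.0 and 75.0 units in Con. At 3 h they were 45.3, 49.3 and 52.0 units in MR and 47.6, 52.6 and 57.3 units in Con. In MR every liver at 6 h was above every liver at 3 h, whereas in Con the times overlapped. The log2 difference of Chuk between 6 h and 3 h was 0.43 in MR (standard error 0.08) and 0.20 in Con (95% interval 0.05 to 0.36). Between the diets it was 0.13 at 6 h (95% interval −0.03 to 0.28) and −0.10 at 3 h (95% interval −0.25 to 0.06), and these differed from each other by 0.22 (95% interval 0.0010 to 0.44). Con at 6 h held both the lowest and the highest liver of that time, the lowest being mouse 4238. Without mice 4238, 4223 and 4214, the difference between the times in Con was 0.26 and that between the diets at 6 h was 0.10.

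Ratios within a library do not depend on its scaling. Ikbkg divided by Ikbkb was 1.21 ± 0.0943 in MR and 0.806 ± 0.101 in Con at 6 h (SD, n = 6 each). The MR livers at 6 h ranged from 1.03 to 1.296, against 0.655 to 0.885 in Con. At 3 h the ratio was 0.808 ± 0.155 in MR and 0.813 ± 0.0743 in Con (SD, n = 6 each). Ikbkg divided by Chuk was 0.507 ± 0.0420 in MR and 0.345 ± 0.0156 in Con at 6 h (SD, n = 6 each), again without overlap. It was 0.379 ± 0.0487 in MR and 0.366 ± 0.0395 in Con at 3 h (SD, n = 6 each). The mean of both ratios was thus higher in the MR livers at 6 h than in the other 3 groups, by the same values of Ikbkg that chose it, although 1 MR liver at 3 h, at 1.10, overlapped with them in the ratio to Ikbkb. Ikbkb divided by Chuk was 0.421 ± 0.0331 in MR and 0.435 ± 0.0715 in Con at 6 h (SD, n = 6 each), with overlap.

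Nfkb1 encodes p105, the precursor of the p50 subunit (chromosome 3, 135584655 to 135691969). At 6 h its lowest, median and highest levels were 13.2, 13.7 and 16.3 units in MR and 13.1, 14.5 and 16.4 units in Con. At 3 h they were 12.51, 15.2 and 15.8 units in MR and 13.6, 14.6 and 15.6 units in Con. All 4 groups overlapped, and no step in their order exceeded 1 SD. The log2 difference of Nfkb1 between MR and Con was −0.05 at 6 h (95% interval −0.19 to 0.09) and −0.02 at 3 h (95% interval −0.16 to 0.12). In Con livers at 6 h the highest value was that of mouse 4238, which also held the most Kupffer cell marker RNA. Without this liver the log2 difference of Nfkb1 between MR and Con at 6 h was −0.01. The part of this liver's other cells in its Nfkb1 level was not tested.

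Rela encodes p65, the subunit with a transactivation domain that pairs with p50 (chromosome 19, 5637442 to 5648134). At 6 h its lowest, median and highest levels were 22.3, 25.6 and 27.5 units in MR and 21.9, 23.5 and 26.0 units in Con. At 3 h they were 19.5, 23.9 and 28.2 units in MR and 20.2, 21.3 and 26.3 units in Con. Again all groups overlapped and no step exceeded 1 SD. Between MR and Con, Rela differed on the log2 scale by 0.10 at 6 h (95% interval −0.06 to 0.27) and 0.09 at 3 h (95% interval −0.07 to 0.25).

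Nfkbia encodes IκBα, the inhibitor that IKK marks for destruction and that NF-κB itself induces, so that its transcript is a common readout of the pathway (chromosome 12, 55489409 to 55492647). At 6 h its lowest, median and highest levels were 24.3, 26.5 and 32.1 units in MR and 24.4, 28.8 and 33.2 units in Con. At 3 h they were 28.6, 31.5 and 36.6 units in MR and 22.5, 29.9 and 37.4 units in Con. The diets overlapped at both times, and Con at 3 h spread the widest, with an SD of 17.0% of its mean. The log2 difference of Nfkbia between MR and Con was −0.06 at 6 h (95% interval −0.26 to 0.14) and 0.11 at 3 h (95% interval −0.09 to 0.31). Between 6 h and 3 h it was −0.21 in MR (95% interval −0.41 to −0.01) and −0.05 in Con (95% interval −0.25 to 0.15). Both diet intervals of Nfkbia ended below the 0.66 of Ikbkg at 6 h. Ikbkg was chosen for that value, so nothing is read from this about the pathway.

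**Figure D3:**
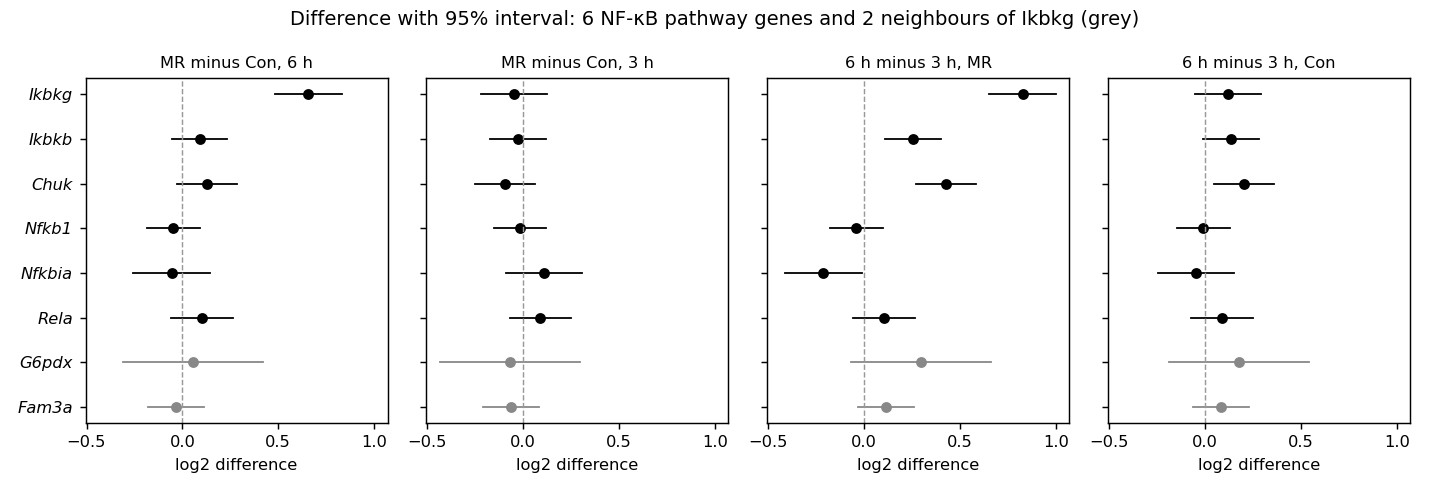
Log2 difference of the 6 genes (black) and of the Ikbkg neighbours G6pdx and Fam3a (grey), with 95% intervals from the fit over 24 livers. The panels give MR minus Con at 6 h, MR minus Con at 3 h, 6 h minus 3 h in MR, and 6 h minus 3 h in Con, on 1 shared axis. Ikbkg stands at 0.66 in the first panel and 0.83 in the third, and the other genes lie between −0.06 and 0.13 in the first.

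Over the whole table, 55 genes (0.608% of 9049) were higher and 12 (0.133%) lower in MR than in Con at 6 h at an adjusted p below 0.05 (limma, Benjamini-Hochberg). Of the 6 genes 1, Ikbkg, was past that threshold, by the same 6 h values from which it was chosen. At 3 h 0 genes (0%) passed in either direction, although 603 had an unadjusted p below 0.05 by limma, the only tool run, and the smallest adjusted p was 0.553. The difference between the diet effects passed in the positive direction for 6 genes (0.0663%), Ikbkg among them, and in the negative direction for 0 (0%). That difference holds the 6 h values for which Ikbkg was chosen. Without mice 4238, 4223 and 4214 the difference between the effects passed for 2 genes, and Ikbkg was not among those. Between 6 h and 3 h in MR, 1260 genes (13.9%) were higher and 1284 (14.2%) lower at 6 h, and Ikbkg, Ikbkb and Chuk were among those higher. In Con 835 genes (9.23%) were higher and 939 (10.4%) lower at 6 h, with 0 of the 6. Nothing is read from these counts for the 6 genes. The median log2 difference of the 6 was 0.10 at 6 h and −0.02 at 3 h between the diets, beside 0.0059 and 0.00014 for all genes. The diet and time comparisons share livers, so they are not independent of each other.

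Mice of 1 group differed little in step. After the group means were taken out, the 15 pairs of the 6 genes had Pearson correlations between −0.47 and 0.61 over the 24 livers, with a median of 0.08. The highest was that of Ikbkb with Nfkb1, and the lowest that of Ikbkb with Nfkbia. Ikbkg and Chuk had a correlation of 0.55 within groups and of 0.77 with the group means left in. These are descriptions over livers that share their libraries and scaling, and weak values in a rounded score are not read further.

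Among 7792 genes with a mean of at least 5 units, the 5 whose levels over the 24 livers were most like those of Ikbkg were A230050P20Rik, Trib3, Cars, Mars and Gtf2ird1, with Pearson correlations of 0.91, 0.91, 0.91, 0.90 and 0.89. Trib3 encodes a pseudokinase of the amino acid stress response, Cars and Mars encode the cytosolic synthetases that charge transfer RNA with cysteine and methionine, and Gtf2ird1 encodes a transcription factor. The likeness follows the MR livers at 6 h, which form a cluster of their own. Cars had 47.3 ± 8.47 units in MR and 22.6 ± 4.82 units in Con at 6 h (SD, n = 6 each), and 13.1 ± 1.78 units in MR and 12.6 ± 2.26 units in Con at 3 h (SD, n = 6 each). Trib3 had 11.98 ± 1.47 units in MR and 3.83 ± 0.614 units in Con at 6 h (SD, n = 6 each), and 2.65 units in MR and 2.64 units in Con at 3 h. Trib3 thus reached the mean of 5 units only through the MR livers at 6 h. Its Spearman correlation with Ikbkg over the 24 livers was 0.73, below the Pearson value of 0.91. With the group means taken out, the correlation with Ikbkg was 0.73 for A230050P20Rik, 0.49 for Gtf2ird1, 0.47 for Cars, 0.27 for Mars and 0.10 for Trib3. Within the 6 MR livers at 6 h alone it was −0.92 for Mars, −0.76 for Cars, −0.15 for Gtf2ird1, 0.05 for A230050P20Rik and 0.15 for Trib3. The livers with more Ikbkg there thus tended to have less of both synthetases, but not less Trib3 or A230050P20Rik, and 6 livers are few for a correlation. With the group means taken out, the genes most like Ikbkg were Arntl, which encodes the clock factor BMAL1, at 0.79, and Ddc, A230050P20Rik, Gsr and Pabpn1 at 0.70 to 0.75. All are descriptions without a test, and Ikbkg had been chosen for its 6 h values.

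**Figure D4:**
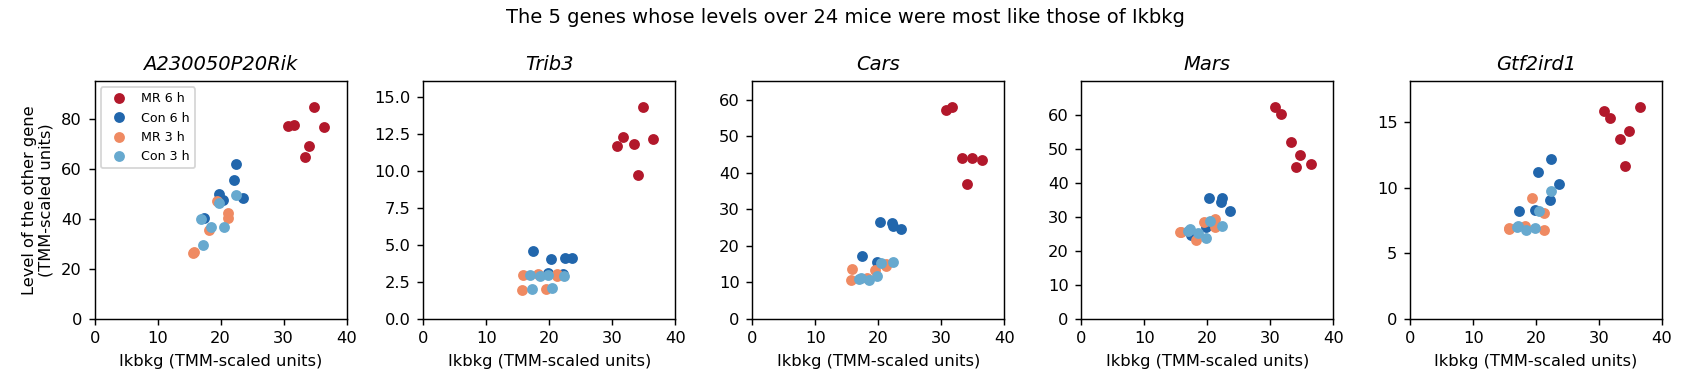
Level of A230050P20Rik, Trib3, Cars, Mars and Gtf2ird1 against the level of Ikbkg in the same liver, both in TMM-scaled units, 1 point per liver, coloured by group. The 6 MR livers at 6 h stand apart along the Ikbkg axis, and also along the other axis except for Gtf2ird1, where the lowest is at 11.7 units and the highest Con liver at 6 h at 12.2, and the other 18 livers lie at 15.6 to 23.6 units of Ikbkg.

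Further genes of the pathway were taken from lists made for this purpose, of which 114 of 177 were listed. Between MR and Con at 6 h, 0 of these passed by limma, with 14 at an unadjusted p below 0.05, where 14.2% of all 9049 genes had such a p. At 3 h, 0 of 114 passed by limma, with 10 at an unadjusted p below 0.05 (6.66% of all genes), and for the difference between the diet effects 0 passed, with 7 at an unadjusted p below 0.05 (6.83% of all genes). The median log2 difference of the 114 was −0.02 at 6 h and −0.0033 at 3 h. Between 6 h and 3 h in Con 6 of the 114 were higher and 11 lower by limma (14.9% together), beside 9.23% and 10.4% of all genes. In MR 9 were higher and 14 lower (20.2% together), beside 13.9% and 14.2% of all genes. The time differences named below are thus not read as a trait of the pathway. The listed genes leave out, among others, Tnf, Il1a and Il1b of the ligands and Tlr2, Tlr4 and Cd14 of the receptors. They also leave out Rel and Relb of the subunits, and Tnfaip3, which encodes the deubiquitinase A20. These genes were not analysed here, and why they are absent is not given in the sources used.

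Of the 14 other listed IκB proteins and nuclear regulators 0 passed at 6 h by limma, with 5 at an unadjusted p below 0.05, beside 14.2% of all genes. This was 1 of 9 lists, and the count is not read further. The acetyltransferase genes Ep300 and Crebbp, which modify p65 and histones, had log2 differences of 0.23 (adjusted p = 0.175 by limma) and 0.24 (adjusted p = 0.234 by limma). Rps3, a ribosomal protein that can bind p65, had −0.18 (adjusted p = 0.274 by limma), and Nkap, a nuclear regulator first described as an activator of NF-κB, had −0.17 (adjusted p = 0.301 by limma). Bcl3, an atypical IκB protein, fell by 0.61 on the log2 scale at 6 h relative to 3 h in Con (adjusted p = 0.0085 by limma), with 15.5 ± 3.63 units at 6 h and 23.8 ± 2.9 units at 3 h (SD, n = 6 each) and no overlap. In MR its log2 difference between the times was −0.03 (95% interval −0.36 to 0.30), and the difference between the diet effects, 0.58, did not pass (adjusted p = 0.645 by limma). Nfkb2, the only other subunit listed, had 3.03 ± 0.0939 units in MR and 3.46 ± 1.33 units in Con at 6 h (SD, n = 6 each), too few units to tell more.

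Kinases and scaffolds upstream of IKK gave 0 calls of 13 between the diets at 6 h and 0 at 3 h. At 6 h the smallest unadjusted p-values were those of Map3k3, a kinase that can activate IKK, with a log2 difference of −0.18 (adjusted p = 0.249 by limma), and Erc1, which binds the IKK complex, with 0.20 (adjusted p = 0.317 by limma). At 3 h Tbk1, the IKK-related kinase of the interferon response, had a log2 difference of 0.24 (adjusted p = 0.553 by limma). At 6 h relative to 3 h in Con, Tab2, an adaptor that links TAK1 to ubiquitin chains, rose by 0.52 on the log2 scale and Hsp90aa1, a chaperone of the IKK kinases, fell by 0.80 (limma, both without overlap between the times). In MR their log2 differences between the times were 0.46 and −0.70, both past the threshold as well.

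Among the adaptors near the receptors 0 of 22 passed between the diets at 6 h, and the log2 differences ran from −0.16 to 0.21. Traf6, a ubiquitin ligase downstream of the interleukin-1 receptor, had a log2 difference of 0.22 at 3 h (adjusted p = 0.572 by limma). At 6 h relative to 3 h in Con, Birc2 and Traf3, both ubiquitin ligases that restrain the non-canonical pathway, fell by 0.30 and 0.31 on the log2 scale (limma, adjusted p = 0.0013 and 0.0148). Traf3 had only 4.03 to 5.48 units in Con at 6 h and 4.86 to 6.97 units in Con at 3 h. The times thus overlapped for Traf3, at a level where the rounded score has few possible values. Among enzymes and readers of ubiquitin chains 0 of 22 passed between the diets at 6 h, although Ube2v2, a cofactor of ubiquitin conjugation, stood nearest with −0.30 (adjusted p = 0.105 by limma). Usp18, an interferon-induced protease, had 27.6 ± 5.55 units in MR and 21.0 ± 4.43 units in Con at 6 h (SD, n = 6 each), a log2 difference of 0.38 (adjusted p = 0.316 by limma). It rose by 1.36 at 6 h relative to 3 h in MR and by 0.77 in Con, and the difference between the diet effects, 0.60, did not pass (adjusted p = 0.645 by limma). Otulin, which removes the linear chains that NEMO binds, fell by 0.40 in MR and by 0.25 in Con at 6 h relative to 3 h, past the threshold in both (limma). The machinery that destroys IκB, Btrc and 6 others, gave 0 calls between the diets at either time, with log2 differences of −0.12 to 0.05 at 6 h.

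Receptors gave 0 calls of 9 and ligands 0 of 3 between the diets at each time. Tnfsf10, the death ligand TRAIL, had the lowest p among the ligands at both times, with log2 differences of −0.28 at 6 h (adjusted p = 0.266 by limma) and −0.39 at 3 h (adjusted p = 0.553 by limma). Tnfrsf1b, a receptor for tumour necrosis factor, had 12.6 ± 1.36 units in MR and 13.2 ± 1.64 units in Con at 6 h (SD, n = 6 each). Il1r1, the interleukin-1 receptor, fell by 1.03 on the log2 scale at 6 h relative to 3 h in MR (adjusted p = 0.0017 by limma). In Con its log2 difference between the times was −0.51, not past the threshold. The difference between the diet effects, −0.52, did not pass either.

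Of 40 genes that NF-κB is known to induce, 23 were listed, and 0 passed between the diets at 6 h by limma (3 at an unadjusted p below 0.05, beside 14.2% of all genes) or at 3 h (3 likewise, beside 6.66%). Their median log2 difference was −0.14 at 6 h, with 17 below 0 and 6 above, and −0.10 at 3 h, beside 0.0059 and 0.00014 for all genes. Without mouse 4238 the median at 6 h was −0.07, and without mice 4238, 4223 and 4214 it was −0.05, with 15 genes below 0 and 8 above. At 3 h it was −0.02 without mouse 4233 and −0.06 without mouse 4218, both Con livers. The lowest at 6 h were Ccnd1, a cyclin, at −0.77 (95% interval −1.69 to 0.15), of which mouse 4238 had 87.6 units and the other 5 Con livers 4.16 to 8.14, and Cxcl1, a neutrophil chemokine, at −0.60 (95% interval −1.17 to −0.02, adjusted p = 0.341 by limma). The acute phase genes Saa1, Saa2 and Saa3 had log2 differences of −0.51, −0.56 and −0.51, none past the threshold. Saa1 and Saa2 can share reads as near-identical copies. Vcam1, an endothelial adhesion gene, had 9.77 ± 1.96 units in MR and 15.9 ± 11.95 units in Con at 6 h (SD, n = 6 each), and the Kupffer cell markers of the same Con livers reached 1426 units in mouse 4238, which also had the highest Vcam1 level, 40.2 units, against 9.37 to 12.3 in the other 5. The part of these cells in the values was not tested. Sqstm1, which encodes the autophagy receptor p62, stood apart from the rest of the list with 344 ± 24.01 units in MR and 273 ± 32.1 units in Con at 6 h (SD, n = 6 each), without overlap. Its log2 difference was 0.34 (standard error 0.09, adjusted p = 0.0841 by limma), short of the threshold.

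**Figure D5:**
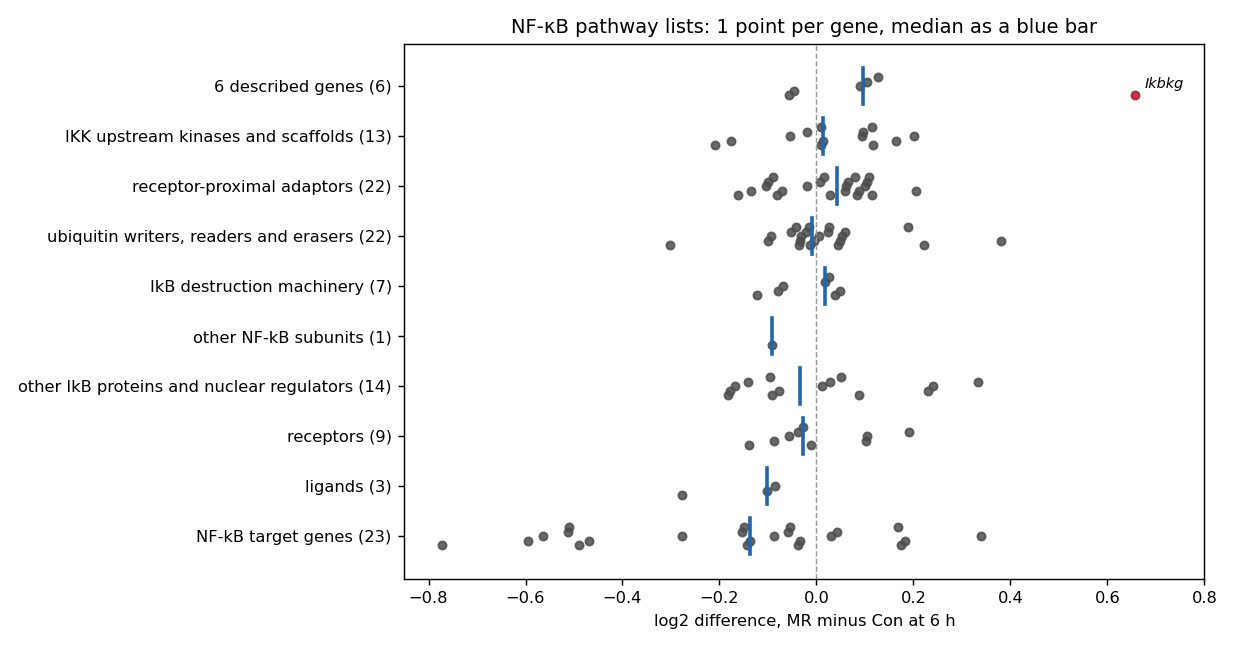
Log2 difference between MR and Con at 6 h for the 6 genes described and for the 114 other genes of the pathway, 1 point per gene in rows by role, with the number of genes in brackets and the median of the row as a blue bar. Ikbkg at 0.66 is in red, and the row of NF-κB target genes has its median at −0.14.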

How the data were processed

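Liver RNA of 24 male mice, 6 per group, was sequenced from the 3′ ends of transcripts. According to the methods of the study, Lexogen QuantSeq libraries were read on a NextSeq and processed with the Lexogen pipeline on Bluebee and CLC Genomics Workbench. GRCm38 and DESeq2 1.22.2 stand in the processing notes of the submitters. The pipeline did the mapping and counting, but the aligner is not given in the sources used here, nor is the rule that gave the 9049 genes. In the table named raw counts the authors deposited a score, whole numbers already scaled to 991702 to 995314 units per library, and not read counts. In the second deposited table the authors divided that score by 1 size factor per library (0.949 to 1.08), which makes it a score as well. Counting error cannot be had from either, and the precision given is the spread between mice.

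The analysis had been planned for the case of counts too, but for a score limma 3.58.1 in R 4.3.3 was used, on log2 of the TMM-scaled score plus a pseudocount of 1 (30% of log ratios and 5% of levels trimmed). The fit had 4 group means over 24 libraries, a prior that was robust and followed the mean-variance trend (with statmod 1.5.0), and yielded both diet differences, their difference, and both time differences. Adjusted p-values are Benjamini-Hochberg over all 9049 genes, with a threshold of 0.05 and no filter. The fit was checked on simulated data. Groups came from the labels and columns were matched by mouse number. The labels give no litter or batch, so p-values measure the spread between these mice.

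The 6 genes and all lists were chosen with earlier results of these data known. Named are the 6 genes, every gene of the wider lists past the threshold between the diets, per list up to 4 genes with the smallest p at 6 h and up to 2 at 3 h and between the times in Con, G6pdx, and the 5 genes most like Ikbkg. Fam3a, Il1r1, Usp18 in MR, Otulin in MR, Ccnd1 and the Saa genes were named after their values were seen. Of the wider lists 1 gene is not reported here and is left out of their counts. Of the 9049 names 9005 matched RefSeq. Alternatives were the authors' size factors, no further scaling, pseudocounts of 0.5 and 5, a mean of at least 5 units, no trend or robust prior, the 12 libraries of a time alone, leaving out mice 4238, 4223 and 4214, and leaving out each mouse in turn.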

Additional observations from a re-analysis of the deposited data

Results flagged for a closer look

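One value stood apart in a group of 6. Nfkb1 was at 16.3 units in 1 MR liver at 6 h (mouse 4239), where the next highest was 13.8 and the lowest 13.2 units, so that 80.8% of the range of the group lay in this 1 gap. Without that liver the log2 difference of Nfkb1 between MR and Con at 6 h was −0.09, against −0.05 with it. A check of this kind also marks groups by chance, at a rate that was not measured for this rounded score, and 24 groups (6 genes in 4 groups) were looked at.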

How the results depend on the processing

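The log2 difference of Ikbkg between MR and Con at 6 h stayed positive in all 32 alternatives, from 0.57 to 0.69 (0.61 to 0.69 with 1 mouse left out). The excess of its diet difference at 6 h over that at 3 h stayed positive in all 31, from 0.61 to 0.75, and past the threshold in 30, the exception being the fit without mice 4238, 4223 and 4214. Both differences hold the 6 h values for which Ikbkg was chosen, so these outcomes lend it no support. Its differences at 3 h ran from −0.09 to 0.0038. The other 5 genes kept the sign of the diet difference at 6 h in every alternative. The alternatives reuse most or all of the same livers, so a kept sign cannot show a direction. In the main fit the interval of each of these 5 differences reached to both sides of no difference, and no direction is read from them. Chuk, not past the threshold between the times in Con as reported above, was past it in 6 of 31.

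Counts over all genes moved more. Without those 3 mice 21 genes were higher and 1 lower in MR at 6 h, against 55 and 12 with all, and 2 in place of 6 passed for the difference between the diet effects. The lower count at 6 h was 4 with no further scaling and 2 in the libraries of 6 h alone, and the count for the difference between the effects was 3 with no trend or robust prior. With 1 mouse left out, the higher count at 6 h ran from 30 to 66, the lower from 2 to 18, and that for the difference between the effects from 3 to 8. Of the other pathway genes, with 1 mouse left out 0 were higher and 0 to 1 lower at 6 h, the lower gene being Ube2v2 without mouse 4241 (adjusted p = 0.0382 by limma). Between the times in Con the higher count of other pathway genes was 3 to 11, against 6 of 114, the ends being those without mice 4215 and 4238. Over all genes that count was 648 to 1022, against 835 (9.23%), with the same mice left out at the ends. The cause of these shifts was not tested. No paired analysis was possible because the mice carry no number that is shared between groups.

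The score is rounded to whole units, so genes near the lower end, such as G6pdx and Nfkb2, have few possible values. For genes with a mean of 5 to 20 units the 95% interval of a diet difference reached 0.18 to either side of it on the log2 scale in the median.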
